A study of Mus musculus with 6 samples.

Results

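The rodent miRNA cluster in an intron of Sfmbt2 was examined through the miRNAs named miR-297, miR-466, miR-467 or miR-669, with any letter, arm or asterisk. By name alone, 54 of the 689 miRNAs in the series belonged to this set: 6 were miR-297 names, 21 miR-466, 8 miR-467 and 19 miR-669. The RNA came from embryonic mouse cardiomyocytes (EMCMs) of wild-type E16.5 Swiss Webster embryos, grown on flexible collagen-coated membranes. In the labels, 3 samples were held static for 24 hours, and 3 were stretched cyclically by 16% at 1 Hz over the same time; the study's methods name CD1 mice and more samples per group. Each miRNA had 1 usable value, the authors' mean abundance over both groups, so the account below is of levels in these cultures as a whole. Stretch against static was not analysed here, no spread between replicates can be given, and no test was run.

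Sfmbt2 encodes a Polycomb-group protein, and in the mouse the gene is imprinted, with expression from the paternal allele in extraembryonic tissue. One of its introns holds a long tandem array of small hairpins that is known from rodents. A hairpin is cut by Drosha and then Dicer into a short duplex, and either strand, named 5p or 3p after its side of the hairpin, may be loaded into an Argonaute protein. In the older naming used in these data, an asterisk marks the strand thought to be the minor one. Bases 2 to 8 of the loaded strand, the seed, do most of the pairing with target mRNAs.

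The label was checked against the GENCODE annotation of GRCm38. There, plus-strand Sfmbt2 spans bases 10370510 to 10595253 of chromosome 2. Of the 54 names, 52 matched at least 1 annotated hairpin, and miR-466a-5p and miR-466a-3p matched none by symbol or synonym. This leaves the place of miR-466a undetermined and does not put it outside Sfmbt2. The matches came to 70 hairpins, of which 67 lay inside Sfmbt2, from 10466663 (Mir466m) to 10518279 (Mir669h), a stretch of 51.6 kb. All 67 were on the same strand as the gene, 0 overlapped an exon, and all fell within 1 intron of 62.5 kb, intron 10 of the transcript Sfmbt2-201. They comprised 27 miR-669, 21 miR-466, 14 miR-467 and 5 miR-297 hairpins, with a median gap of 209 bases between neighbours. The annotation places 52 further miRNA genes in the same intron that carry none of the matched names.

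The remaining 3 hairpins lay elsewhere, so the name and the locus do not fully coincide. Mir466i, on chromosome 13 from 17747473 to 17747593, sits within Cdk13 on the opposite strand. Mir466f-4 lies on chromosome 13 from 71107089 to 71107209, and Mir297-1 on chromosome 7 from 10958437 to 10958512, both outside other annotated genes. For miR-466i-5p and miR-466i-3p this was the only matched hairpin, whereas miR-466f, miR-297a and miR-297a* also had 3 hairpins each inside Sfmbt2. In all, 47 names had every matched hairpin inside the gene. The reads of these outlying members need not come from the intron. RefSeq sequences (GRCm38.p6) are shown for miR-466i-3p and Mir297-1, for which they were at hand. In the mature strand, at chr13:17747552-17747573 on the plus strand, capitals mark the seed, and in the hairpin, at chr7:10958437-10958512 on the minus strand, capitals mark its longest run of the repeated unit AUGU, with 5 copies.

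miR-466i-3p: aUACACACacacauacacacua

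Mir297-1: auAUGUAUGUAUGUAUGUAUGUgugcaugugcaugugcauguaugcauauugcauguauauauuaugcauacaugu

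The members were a very small part of the miRNA in EMCMs. Below, the cluster stands for these named members, including miR-466i from chromosome 13. The 52 further miRNA genes of the intron were not examined. The authors' mean abundance is on a log2 scale, and 2 to its power, which sums to 0.995 over all miRNAs, was read as a share of miRNA reads. The members together held 0.0117% of the reads, or 116.6 reads per 1000000 miRNA reads (RPM), although they made up 7.84% of the listed miRNAs. The most abundant miRNA of the table, miR-22, stood 1757 times above the members' sum. For 3 members, miR-669b*, miR-669d* and miR-669m-3p, the deposited mean lay near -36, together with 22 other miRNAs and separated from the remaining miRNAs by a gap of 11.1 on the log2 scale. No library could measure so low a share, so these are listed without a level. Whether they had reads in some of the samples cannot be told from 1 mean value. The other 51 members counted as measured.

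Their levels ranged from -24.02 (miR-669g) to -14.98 (miR-467a), with a median of -20.68. The median of the 664 measured miRNAs was -17.57, or 8.66 times higher. Only 5 of the 51 members were above that median, and 0 were among the 166 most abundant miRNAs. A level above 1 RPM was reached by 19 members (37.3%) and by 441 of all measured miRNAs (66.4%). At the lower end, 10 members (19.6%) were under 0.1 RPM, compared with 7.68% of all measured miRNAs. The members thus lay in the lower part of the distribution, with a thin upper edge formed by a few names.

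**Figure D1:**
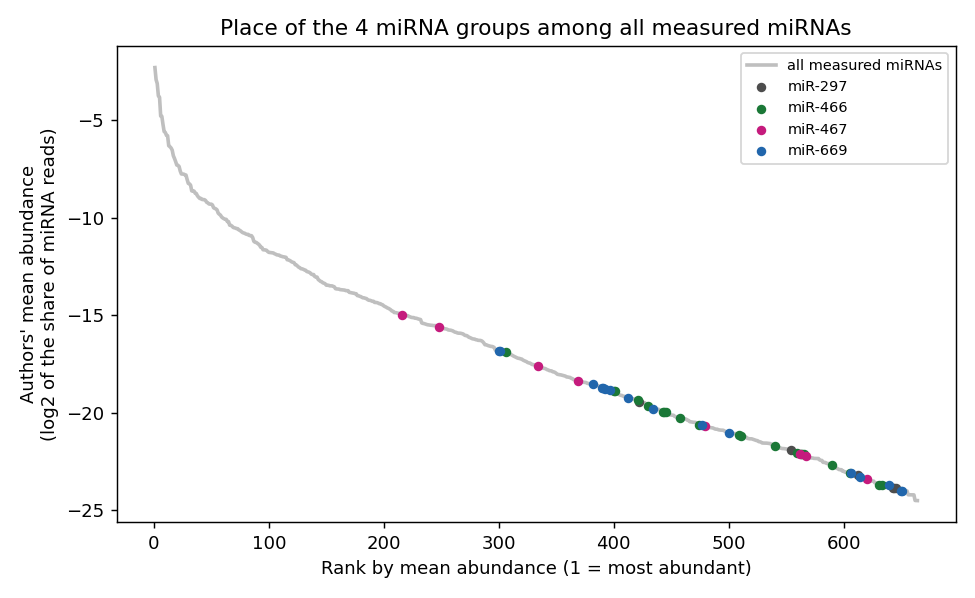
Authors' mean abundance (log2 of the share of miRNA reads, both groups pooled) of the 664 measured miRNAs against their rank, with members coloured by number. The first member, miR-467a, stands at rank 216, and most members fall in the lower part of the curve.

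The level was concentrated in the miR-467 names. They summed to 60.1 RPM, or 51.5% of the cluster, against 28.1% for miR-669, 18.7% for miR-466 and 1.66% for miR-297. Among them, miR-467a led with 30.9 RPM and rank 216 of 689, and miR-467d followed with 20.05 RPM and rank 248. These 2 names alone made up 43.7% of the cluster. The asterisk strand miR-467d* was at 5.07 RPM, and miR-467e was at 2.96 RPM. By contrast, miR-467b and miR-467c, whose hairpins lie in the same array, stood at 0.593 and 0.206 RPM, and miR-467a* at 0.0883 RPM. The miR-467 names therefore ran from the top of the cluster almost to its floor, a range of 8.45 on the log2 scale.

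The miR-669 names formed the next layer. miR-669a-5p and miR-669p were both listed at 8.50 RPM with every digit the same, at rank 300. Below them came miR-669l with 2.59 RPM, miR-669a-3p and miR-669o-3p, again identical, with 2.31, miR-669c with 2.23, and miR-669o-5p with 2.15 RPM. Further down, miR-669f-5p had 1.62, miR-669d 1.08 and miR-669b 0.460 RPM. Near the bottom of the whole cluster was miR-669e with 0.0719 RPM, and its lowest levels were those of miR-669h-5p and miR-669g, both 0.0588 RPM, close to the lowest measured level of any miRNA in the table, 0.0415 RPM. All 3 members without a level belonged to miR-669.

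Of the 21 miR-466 names, miR-466g stood clear of the others at 8.19 RPM and rank 306. The next, miR-466a-3p and miR-466e-3p, shared a value of 2.05 RPM, followed by miR-466d-5p with 1.50 and miR-466i-3p, the strand shown above from chromosome 13, with 1.22 RPM. The remaining miR-466 names were below 1 RPM, led by miR-466b-3p, miR-466c-3p and miR-466p-3p, all at 0.987. Their lowest were miR-466i-5p and miR-466a-5p, each at 0.0722 RPM. The miR-297 names were the least abundant group, with a median level of -23.54. Only miR-297a exceeded 1 RPM, at 1.39; miR-297b-5p had 0.248 and miR-297c 0.102 RPM.

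**Figure D2:**
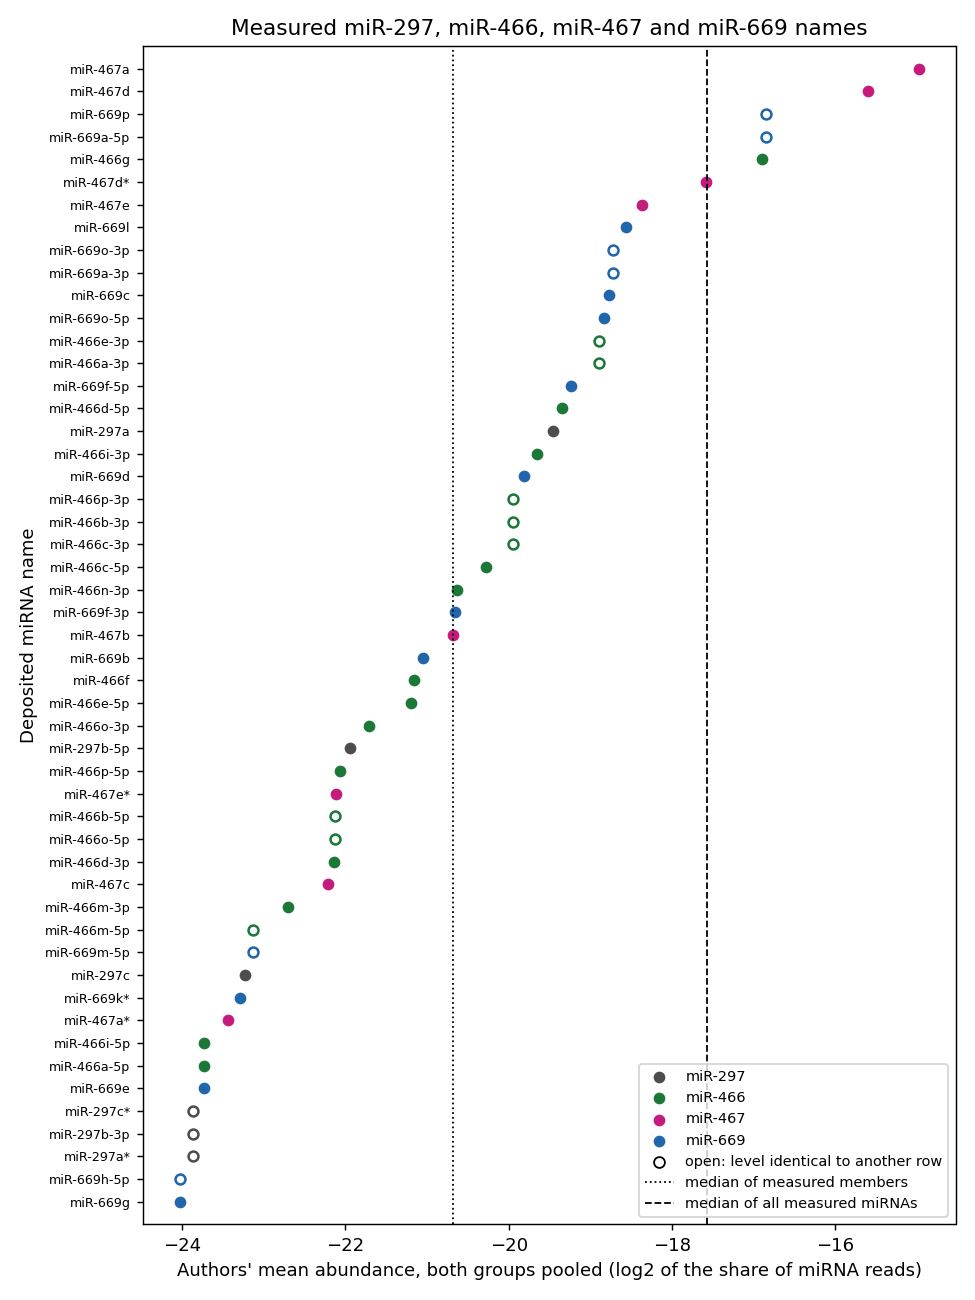
Authors' mean abundance (log2 of the share of miRNA reads, both groups pooled) of the 51 measured members, ordered by level and coloured by number, with open circles for values identical to another miRNA. Only miR-467a, miR-467d, miR-669p, miR-669a-5p and miR-466g lie to the right of the dashed median of all measured miRNAs, which passes just to the right of miR-467d*.

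The arms of a hairpin were compared where both were listed. Levels above the floor were available for both arms of 18 miRNAs. For miR-466, the 3p arm was higher in 8 of 9 miRNAs, with a median difference (5p minus 3p) of -2.12 on the log2 scale. The gap was widest for miR-466a, with 2.05 RPM for 3p and 0.0722 for 5p, and for miR-466i, with 1.22 and 0.0722 RPM. It was narrow for miR-466c, miR-466m and miR-466o, at 1.26, 1.35 and 1.34 times. The exception was miR-466d, whose 5p arm was 6.93 times higher than its 3p arm. These pairs are not all separate comparisons, because miR-466a-3p and miR-466e-3p shared 1 value and the 3p strands of miR-466b, miR-466c and miR-466p another. Only miR-466d and miR-466i had 2 arms free of repeated values, and they pointed in opposite directions.

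In most pairs of the other numbers, the 5p or unmarked strand was the higher one. All 3 miR-467 pairs had the unmarked strand above the asterisk strand, by 349.8 times for miR-467a, 13.5 times for miR-467e and 3.95 times for miR-467d. The miR-297 pairs went the same way in 3 of 3, from 1.55 times for miR-297c to 21.2 times for miR-297a, but their asterisk or 3p strands were all listed at the same 0.0657 RPM. For miR-669, the 5p arm was higher in miR-669a, by 3.67 times, and in miR-669f, by 2.67 times, whereas the arms of miR-669o differed by 1.08 times in favour of 3p. In 3 further miR-669 pairs, miR-669b, miR-669d and miR-669m, the asterisk or 3p strand was the member without a level. An unmarked name does not state its side of the hairpin, so the grouping of 5p with unmarked strands, and of 3p with asterisk strands, is one of names and not of hairpin sides. Moreover, the asterisk already marks the strand thought to be minor. A higher unmarked strand in miR-467, miR-297a and miR-297c thus follows the naming and is no separate result on the arms. How often this order holds for other miRNAs was not examined.

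**Figure D3:**
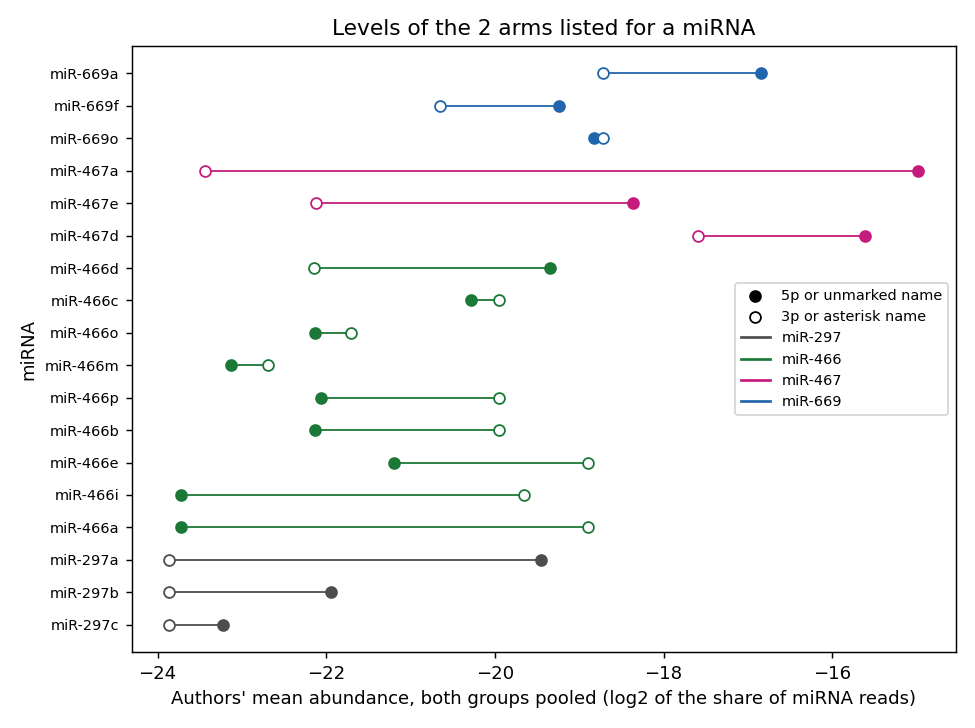
Authors' mean abundance (log2 of the share of miRNA reads, both groups pooled) of both arms of 18 miRNAs, with filled circles for 5p or unmarked and open circles for 3p or asterisk names. The open circle lies to the right in 8 of the 9 miR-466 pairs, and to the left in the 3 miR-467 and the 3 miR-297 pairs.

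Several names of the cluster carried the same value. Of the 54 members, 18 (33.3%) had a mean abundance identical in every digit to that of another miRNA, compared with 12 of the 635 other miRNAs (1.89%). In 7 sets all names were members: miR-669a-5p with miR-669p, miR-669a-3p with miR-669o-3p, miR-466a-3p with miR-466e-3p, the 3p strands of miR-466b, miR-466c and miR-466p, miR-466b-5p with miR-466o-5p, miR-466m-5p with miR-669m-5p, and the trio miR-297a*, miR-297b-3p and miR-297c*. The remaining repeats paired miR-669h-5p with miR-29b-1*, and miR-669m-3p with miR-760-5p, which are no members. Above 1 RPM, 6 of 19 members but only 6 of 422 other miRNAs had a repeated value. Near the floor, values also lay close together: miR-669h-5p and miR-669g each had 8 further miRNAs within 0.01 on the log2 scale, and miR-669e had 11. Every name of a set is counted in the numbers above, although a set gives 1 value only, and whether its names share reads was not tested. With each set counted once, 42 measured values remained, and the share of reads was 0.0102%.

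The number of hairpins behind a name varied from 1 to 12. The higher measured arm of 32 miRNAs with a matched hairpin gave a Spearman's rho of 0.26 between hairpin number and level; these points share libraries and, in part, values. miR-467a had 10 hairpins and the highest level, and miR-669a had 12, more than any other member. Yet miR-467d, second in the cluster, and miR-466g each had 1 hairpin, while miR-466b, with 8, stayed at 0.987 RPM in its higher arm. The median level was -19.82 for the 9 miRNAs with several hairpins and -20.66 for the 22 with 1 hairpin inside Sfmbt2, and the ranges overlapped widely.

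Along the intron, hairpins a few kb apart could differ widely in level. The pairs below were chosen after their values were seen. Each sets a higher name against one low in the measured range, which ended at 0.0415 RPM. Mir467d lies 137.1 kb from the start of Sfmbt2, and Mir297c only 138.5 kb from it, but miR-467d was at 20.05 and miR-297c at 0.102 RPM. Similarly, miR-466g at 144.1 kb had 8.19 RPM, and the last member hairpin, Mir669h at 147.6 kb, gave 0.0588 RPM for miR-669h-5p. The latter value was identical to that of miR-29b-1*. Near the upstream end, miR-669l at 98.5 kb had 2.59 RPM and miR-669e at 97.0 kb had 0.0719. Among the 22 miRNAs with 1 matched hairpin in the intron, the 11 nearer the gene start had a median of -21.70. The 11 farther from it had a median of -19.35. Both parts reached down to -24.02, but the highest level was -18.56 in the part nearer the gene start and -15.61 (miR-467d) in the other. Spearman's rho between distance and level was 0.25. Of the 22 miRNAs, miR-466e-3p, miR-466p-3p, miR-669o-3p and miR-669h-5p had a value identical to that of another name. Their levels may therefore not belong to 1 position alone, which was not tested.

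**Figure D4:**
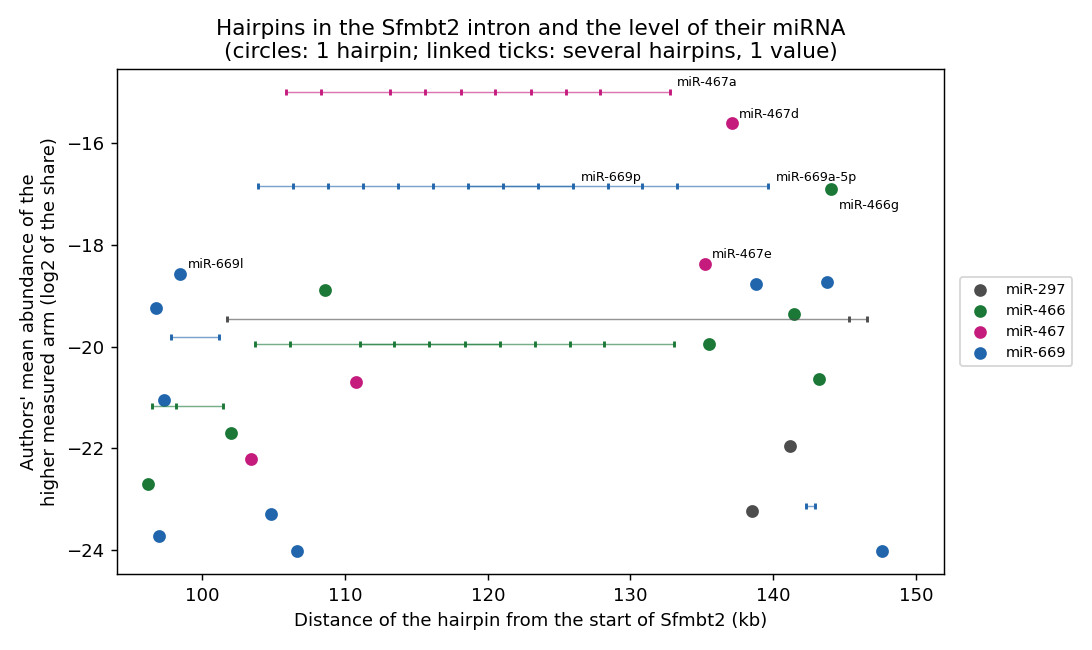
Position of member hairpins, as distance from the start of Sfmbt2 in kb, against the authors' mean abundance of the higher measured arm (log2 of the share, both groups pooled). Single hairpins are circles, some of them at a value shared with another name. Linked ticks are the several hairpins of 1 name at its 1 value, some drawn over each other where names share a value. Low levels occur along the whole 51.6 kb, while the highest circles lie in the part farther from the gene start.

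Set beside the other large imprinted miRNA cluster of the mouse, the hairpins between Dlk1 and Dio3 on chromosome 12, the Sfmbt2 set was much lower. The 95 miRNAs with every matched hairpin between these genes held 10.3% of the reads, 887 times the total of the Sfmbt2 set, with miR-127 alone giving 69.2% of that share. Their median of -15.81 was above the median of all measured miRNAs, while that of the Sfmbt2 set was below it. In the Dlk1-Dio3 cluster 73 of 93 measured miRNAs (78.5%) exceeded 1 RPM, against 19 of 51 here. Of the Dlk1-Dio3 names, 0 shared a value with another miRNA. The sets were built by unlike rules, Dlk1-Dio3 by place and the Sfmbt2 set by name, with miR-466i included. The 44 measured members whose hairpins all lie in Sfmbt2 held 0.0111% of the reads.

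The labelled cell type was checked with miRNAs known from particular cells. The heart and skeletal muscle list held 1.51% of the reads, or 15086 RPM, of which miR-208b at rank 15 alone gave 11734 RPM. Next came miR-133a at rank 44 with 1860 RPM, miR-208a-3p with 747 and miR-1a with 395 RPM. Lower in this list, miR-133b had 10.6 RPM, and miR-1a-2* was without a measured level. The lists of smooth muscle (13.4%), endothelium (0.477%) and fibroblasts (0.453%) were each far above the whole Sfmbt2 set. Smooth muscle was nearly all miR-143, at 133295 RPM, with miR-145 at only 694 RPM. Endothelium rested mainly on miR-126-5p, at 4642 RPM, with miR-126-3p at 129 RPM. A list carried by 1 name gives no measure of how many such cells were present. The blood list, at 82.9 RPM, was below the Sfmbt2 set, while miR-122 of liver was at 0.600 RPM and miR-124 of neurons was not listed. Since the values are pooled, fewer cells that express a miRNA and less of it per cell cannot be told apart. The part of any other cell types in the members' levels was not tested.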

How the data were processed

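Small RNA libraries (TruSeq Small RNA, HiSeq2500) were made from static and stretched EMCMs. As the methods describe, the authors trimmed adapters, kept tags in the length range of small RNAs, mapped them with Bowtie2, summed hits per gene ID and used edgeR; the submitters' processing notes also list DESeq. Genome build, versions and any low-count filter are not given in the sources used here. Reads that fit several near-identical hairpins could thus be counted in ways that change the members' levels.

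The authors deposited 1 table with a mean abundance on a log2 scale over both groups, which was used, and 4 columns of their own comparison (log2 fold change, signed fold change, P value and FDR), which were not. How the mean was taken over samples is not stated. No counts were used, and sequencing depth is therefore unknown for every sample. The edgeR test planned for counts per sample could not be run.

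Members were found by name, a level above -30 counted as measured, and the share of reads was computed as 2 to the power of the level. The rule for repeated values also asks for the fold change; only the mean abundance was used. Hairpins were assigned to names by their RefSeq symbol or synonym, and GENCODE M21 gave their positions. The miRNAs named are the 10 highest and 3 lowest members, their other arms and members with repeated values; further members, miR-22, miR-127 and the hairpins compared along the intron were chosen after their values were seen. Members and lists were chosen with earlier results of these data known. Finding members and arms by name, counting repeated values and summing levels were tested on simulated data. Hairpin matching, positions and the comparison lists were not. Figures were drawn with matplotlib 3.10.9, and values computed with pandas 2.3.3, scipy 1.17.1 and numpy 2.4.6 under Python 3.11.15.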

Additional observations from a re-analysis of the deposited data

How the results depend on the processing

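The count of 51 measured members was 51 with a floor of -25 and 42 with repeated values counted once. The 18 members with a repeated value were 23 when values were compared to 3 decimals, and the 67 hairpins inside Sfmbt2 stayed at 67 with 100 kb added around the gene. The summed share of 0.0117% was 0.0102% with repeated values counted once, 0.00857% without miR-467a and 0.0111% for the 44 measured members whose hairpins all lie in Sfmbt2. The median level of -20.68 was -21.10 over all members, -20.87 with repeated values counted once and -20.63 for names without an asterisk, always below the median of all miRNAs. The median arm difference over all numbers, 0.26 with 5p grouped with unmarked and 3p with asterisk names over 18 miRNAs, was 2.39 over the 6 without repeated values, which include only miR-466d and miR-466i of the miR-466 pairs. Those 6 also include all 3 miR-467 pairs, where the asterisk already marks the presumed minor strand. Without depth per sample, the least abundant members are the least certain.

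No paired analysis was possible because the table holds 1 value per miRNA over all samples; for the same reason the fit of stretch against static, with or without a replicate block, and the omission of single replicates could not be carried out. A comparison of sequences between members was not made, since RefSeq sequences were at hand for few of them.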
